A study of Mus musculus with 2 samples.

Results

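The colony-stimulating factors are secreted proteins that keep myeloid cells alive, make them multiply and mature, and act through receptors on those cells. Csf1 encodes M-CSF, the main growth factor of macrophages, Csf2 encodes GM-CSF, and Csf3 encodes G-CSF, the main growth factor of neutrophils. Csf1r encodes the tyrosine kinase receptor of M-CSF, Csf3r the receptor of G-CSF, Csf2ra the ligand-binding subunit of the GM-CSF receptor and Csf2rb the beta subunit that GM-CSF, IL-3 and IL-5 receptors share, while Csf2rb2 encodes a second beta subunit of the mouse that serves the IL-3 receptor. M-CSF is made by many stromal and epithelial cells, whereas G-CSF and GM-CSF are mostly made after an inflammatory stimulus. Which cells of a graft held the RNA of a ligand or a receptor cannot be read from whole-graft arrays. All probe sets, that is, sets of array probes designed for one transcript, that the platform annotation gave exactly 1 symbol out of these 8 genes were taken, which gave 15 of 45037 probe sets other than controls, for 8 of 18193 genes. One further probe set was listed under both Csf2rb2 and Csf2rb and was not used.

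The 2 samples were islet grafts removed 6 hours after transplantation. Each recipient had received 50 islets of wild type C57BL/6 donors below the capsule of its left kidney. One was a normoglycemic male wild type C57BL/6 mouse, and the other a hyperglycemic male heterozygous Akita mouse, which carries a missense mutation in 1 of its Ins2 copies. Total RNA of each sample was hybridized to 1 MOE430 2.0 array, so there was 1 array per condition, no replicate and no test. Genotype and blood glucose of the recipient cannot be told apart. The labels name 1 mouse per sample, and how many grafts were pooled for each RNA, if any, is not given. The beta cell genes Ins2 (68738 in the normoglycemic and 88302 in the hyperglycemic mouse) and Iapp (47116 and 74018) had high signals in both samples, but so did the proximal tubule gene Kap (89517 and 128500), so RNA of kidney as well as of islets was measured in both. Signals are MAS5 intensities in arbitrary units, and below, each gene is given with its signal in the normoglycemic mouse first. A signal below the median of its array (82.9 and 91.5) was regarded as low, and no fold is given without a bound where a signal was low. Counts, medians, ranges and plots of log2 ratios use the deposited signals, low ones included, unless stated otherwise.

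Both arrays had the same trimmed mean, 500.004, whereas in the hyperglycemic mouse the 18 hybridization controls were brighter, by 1.91-fold at the median. RNA quality was read from the ratio of 3' to 5' control probe sets, at 3.54 and 3.99 for Actb and 1.3 and 1.76 for Gapdh. Their part in the results below was not tested. How far ratios scatter within these arrays was read from genes with more than 1 probe set. Among 3994 pairs of such probe sets whose dimmer member had a mean signal between 256 and 1024, 1 SD of the ratio was 1.27-fold, between 64 and 256 it was 1.54-fold, and between 16 and 64 it was 2.84-fold. This is a technical spread and not an error between mice.

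The receptor genes were higher in the graft of the hyperglycemic mouse on all 8 of their probe sets with neither signal low, with a median log2 ratio (hyperglycemic over normoglycemic) of 1.73, and the ninth, of Csf2ra, was low on both arrays. Of the ligands, Csf1 had log2 ratios of 0.59 and 1.04 on its 2 probe sets with neither signal low, Csf3 was at least 2.04-fold higher, and Csf2 was low on both arrays. Of all 15 probe sets, 11 were over 2-fold higher in the hyperglycemic mouse and 0 were over 2-fold lower, with a median log2 ratio of 1.60. Over all 45037 probe sets, 18% were higher by over 2-fold and 15.3% lower, with a median log2 ratio of 0.01, and many of these had low signals. Among the 19958 probe sets whose signals both reached the array medians, 3.55% were over 2-fold higher and 1.83% as much lower, and of the 10 colony-stimulating factor and receptor probe sets in this range, 8 were over 2-fold higher and 0 lower. With low signals raised to the array medians, 9 of the 15 were over 2-fold higher and 0 lower, against 2.46% and 1.15% of all probe sets.

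**Figure D1:**
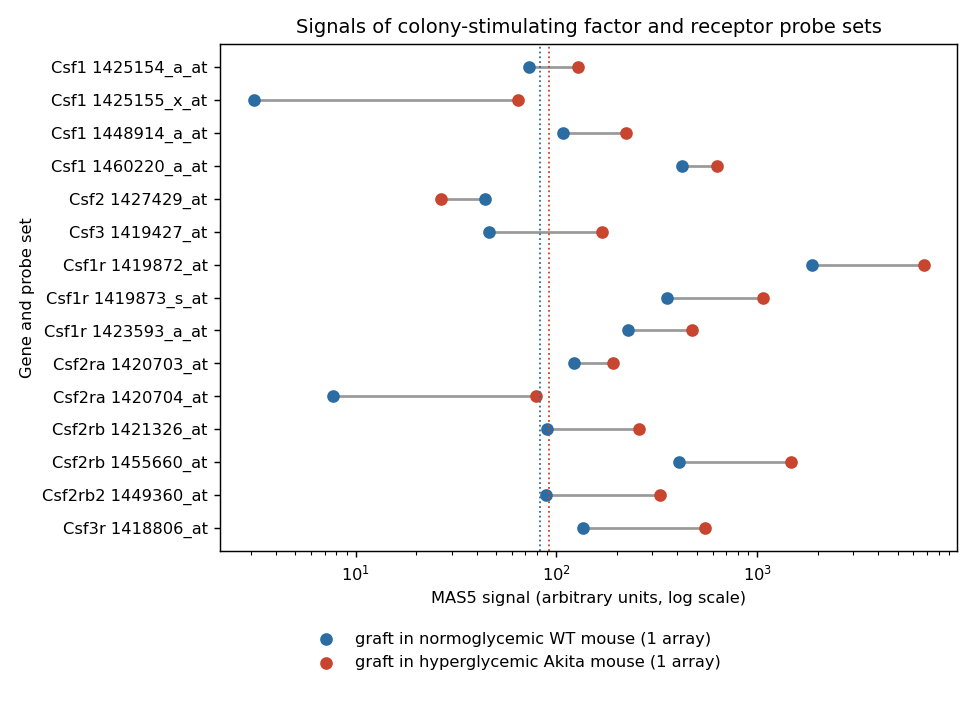
MAS5 signal (x axis, arbitrary units, log scale) of each of the 15 probe sets (y axis) in the graft of the normoglycemic mouse (blue) and of the hyperglycemic mouse (red), 1 array each. Dotted lines mark the array medians, 82.9 and 91.5. The red point lies to the right for every probe set but that of Csf2, and the signals of Csf1r reach 6769.

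Csf1r, which marks macrophages and monocytes, had the highest signals of its own probe sets on 1419872_at, at 1872 in the normoglycemic and 6769 in the hyperglycemic mouse (3.62-fold). On 1419873_s_at the signals were 354 and 1072 (3.03-fold). On 1423593_a_at they were 227 and 475 (2.09-fold). All 3 were thus higher in the hyperglycemic mouse and all 6 signals were above the array medians, but the largest and the smallest ratio differed by 1.73-fold. The suffix s marks probes that can bind more than 1 transcript, and the probe set with that suffix lay between the other two. In a whole graft, more macrophages and more Csf1r RNA per macrophage cannot be told apart.

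Macrophage markers were higher in the same direction and by more. All 8 measured markers of 10 listed (9 had a probe set with 1 symbol) were over 2-fold higher, with log2 ratios from 2.01 (Mrc1, whose signal of 80.1 in the normoglycemic mouse was low) to 4.03 and a median of 2.70, against 1.06 to 1.85 for the Csf1r probe sets. Adgre1, which encodes the surface antigen F4/80, had signals of 447 and 2673 (5.98-fold). Cd68, a lysosomal protein of macrophages, had signals of 166 and 1074 (6.46-fold), and Fcgr3, an Fc receptor, had signals of 238 and 3878 (16.3-fold). Lyz2, a lysozyme that macrophages share with other myeloid cells, had signals of 5539 and 55987 (10.1-fold). Cd14, a coreceptor for bacterial lipopolysaccharide, had 1624 and 10468 (6.45-fold). The log2 ratio of each of the 8 markers was above that of every Csf1r probe set, each marker being represented by its brightest probe set. The summed signal of the 9 markers, 0 of them at a signal of 0, was 8608 in the normoglycemic and 77896 in the hyperglycemic mouse. Most of it came from Lyz2 in both mice. The part of macrophage number in the ratio of Csf1r was not tested.

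Csf3r, the receptor that is typical of neutrophils and also present on monocytes, had the largest ratio of these 8 genes where both signals were above the medians, with signals of 136 and 547 on 1418806_at (4.02-fold). The neutrophil markers did not all move with it. S100a8 and S100a9, calcium-binding proteins of neutrophils that monocytes also make, had signals of 1558 and 5481 (3.52-fold) and of 2536 and 10930 (4.31-fold). Mpo, the myeloperoxidase of neutrophil granules, had signals of 140 and 118, and Mmp9, a gelatinase of neutrophils and macrophages, 120 and 144. Cxcr2, the receptor of neutrophil chemokines, was low on both arrays, at 55.5 and 43.8. Of 12 listed neutrophil markers, 10 had a probe set with 1 symbol and 6 were measured, 4 of these over 2-fold higher (3 with low signals raised to the array medians), with a median log2 ratio of 1.41 (0.64 with that floor). The summed signal of the 10 was 4619 and 17184, most of it from S100a8 and S100a9 in both mice. The part of neutrophil number in the ratio of Csf3r was not tested.

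The beta subunits gave similar ratios. Csf2rb had signals of 406 and 1468 on 1455660_at (3.62-fold). On its other probe set, 1421326_at, the signals were 89.5 and 259 (2.89-fold), the first of them just above the array median. Csf2rb2 had signals of 88.6 and 328 on 1449360_at (3.70-fold), likewise from just above the median. The beta subunits are close relatives in sequence, and how far their probes bind the RNA of the other was not tested. On the log2 scale the 3 ratios were 1.53, 1.86 and 1.89, and they lay closer together than 1 SD of the technical spread at signals between 64 and 256 (0.62).

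Csf2ra, the subunit that gives the receptor its affinity for GM-CSF, differed less on its brighter probe set. The signals were 122 and 191 on 1420703_at (1.57-fold, a log2 ratio of 0.65, near 1 SD of the technical spread at this signal). On 1420704_at they were 7.68 and 79.5, both below the array medians, so no fold is given. The alpha subunit was thus below 2-fold where it was measured, whereas the beta subunit that pairs with it was 2.89-fold and 3.62-fold higher on its probe sets. The difference between the subunits was not tested.

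**Figure D2:**
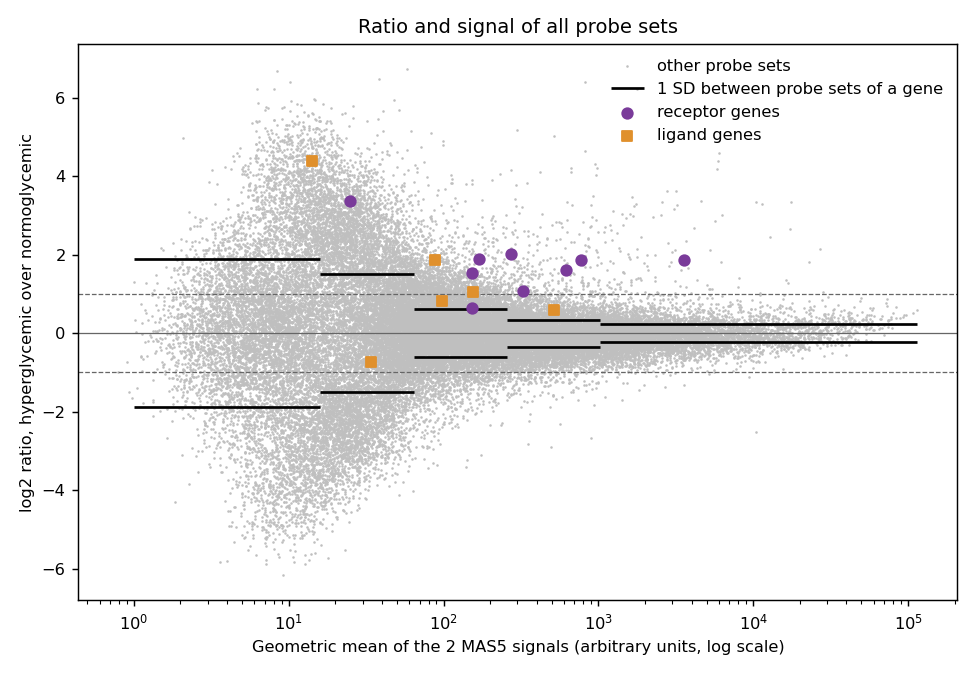
Log2 ratio of the signal in the hyperglycemic over that in the normoglycemic mouse (y axis) against the geometric mean of both signals (x axis, log scale) for 45037 probe sets (grey), with receptor genes as purple circles and ligand genes as orange squares. Black bars mark 1 SD of the ratio between probe sets of the same gene in each range of signal and dashed lines 2-fold. The points at log2 ratios of 4.38 (Csf1) and 3.37 (Csf2ra) lie in the range of low signals, where the spread is widest.

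Csf1, the ligand of Csf1r, was moderately higher. On its brightest probe set, 1460220_a_at, the signals were 421 and 632 (1.5-fold). On 1448914_a_at they were 108 and 221 (2.05-fold). On 1425154_a_at they were 73.2 and 129, at least 1.55-fold with the lower signal raised to the array median. All 3 ratios were in the same direction, and as deposited they lay between 1.31 and 1.70 technical SDs from equal signals. The fourth probe set, 1425155_x_at, whose suffix marks probes that may bind other transcripts, had signals of 3.10 and 64.7, both low, and no fold is given. Il34, the other ligand of Csf1r, had signals of 255 and 222 (a log2 ratio of -0.20), and the difference between these ligands was not tested.

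Csf3 had signals of 46.3 and 169 on 1419427_at. The first was below and the second above its array median, so that Csf3 was at least 2.04-fold higher in the hyperglycemic mouse. Csf2 had signals of 43.9 and 26.6 on 1427429_at, both low, and no difference could be detected at these signals. Of the inducible ligands, G-CSF RNA was therefore above the median in the hyperglycemic mouse and GM-CSF RNA in neither. IL-3, which is encoded next to Csf2 on chromosome 11 and also uses the beta subunits, was low on both arrays (Il3, 5.67 and 5.38), as was Il5 (26.5 and 3.57).

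Stromal and parenchymal cells, which can make Csf1, gave other values. Of 7 measured endothelial markers, 2 were over 2-fold lower (Pecam1 and Tek) and 0 over 2-fold higher, with a median log2 ratio of -0.78. With low signals raised, only Tek (331 and 80.2, the second low) remained over 2-fold lower, by at least 3.62-fold. Cdh5, the cadherin of endothelial junctions, had signals of 607 and 495 and Kdr, a receptor of VEGF, 487 and 274. Flt1, another receptor of VEGF, had signals of 1047 and 915, Emcn 513 and 298, and Pecam1, an adhesion molecule of endothelium, 86.7 and 12.5, the second of them low. Of 8 markers of fibroblasts and mural cells, 2 were over 2-fold lower, and 1 was over 2-fold higher until low signals were raised, with a median of -0.39. The log2 ratios of all 6 proximal tubule markers lay between -0.36 and 0.52, and those of the 5 beta cell markers between -0.45 and 0.65. On its brightest probe set Csf1, at 0.59, lay within the range of the beta cell markers and above that of the proximal tubule markers. It also lay above the endothelial range (-2.80 to -0.19), whose lower end was Pecam1 with 1 signal low. The fibroblast and mural cell range (-1.47 to 2.68) held it only through Col1a1 (64.3 and 111) and Lum (18.1 and 116), each with 1 signal low. Among the markers of that list with neither signal low, the highest log2 ratio was 0.20 (Dcn). All these ranges hold only for the brightest probe set of each marker. Over all probe sets, log2 ratios ranged from -0.09 to 2.39 for Rgs5 and from -1.79 to 2.26 for Acta2. They ranged from -0.15 to 0.67 for the proximal tubule marker Lrp2 and from -0.41 to 2.23 for the beta cell marker Pdx1. Which cells held the Csf1 RNA cannot be read from these arrays.

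The genes that act with or after these receptors were described by list, with 1 probe set per gene, the brightest. Among all 12538 genes with at least 1 signal at or above its array median, 7.56% were over 2-fold higher, 5.54% were over 2-fold lower and the median log2 ratio was -0.06. Of 21 measured signal transducers of 26 listed, 3 were over 2-fold higher and 0 lower by that much, with a median log2 ratio of 0.25. Tyrobp, an adaptor of macrophage receptors that also works with Csf1r, had signals of 898 and 7258 (8.08-fold). Syk, the kinase that Tyrobp recruits, was at least 2.80-fold higher on its brightest probe set, although its 4 probe sets ranged from -0.65 to 2.23 on the log2 scale. Jak2, the kinase bound to the GM-CSF receptor, had signals of 1181 and 1148. Stat3, which acts after G-CSF, had signals of 3094 and 3370 on its brightest probe set, and its 4 probe sets ranged from 0.06 to 1.13 on the log2 scale. Fgr, a kinase of myeloid cells, had signals of 185 and 347, Akt1 444 and 259 and Gab2 851 and 557, although other probe sets of Akt1 and Gab2 reached log2 ratios of 0.58 and 1.86, and Pik3cd, with a signal of 20803 and 37232, had log2 ratios from 0.22 to 1.12 over its 6 probe sets.

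Of 11 measured negative regulators of 14 listed, 4 were over 2-fold higher (3 with the floor) and 0 lower, with a median log2 ratio of 0.62. Socs3, the feedback inhibitor of the G-CSF and IL-6 receptors, had signals of 1580 and 5208 (3.30-fold). Inpp5d, a lipid phosphatase of blood cells that restrains signals of Csf1r, had signals of 114 and 403 (3.55-fold). Sla, an adaptor of blood cells, had 124 and 404 (3.27-fold), although its 4 probe sets ranged from 0.07 to 1.71 on the log2 scale. Cish, the feedback inhibitor that STAT5 induces, had signals of 985 and 1320 (1.34-fold), Socs2 1662 and 2359 (1.42-fold) and Cbl, which marks Csf1r for breakdown, 770 and 735. The higher genes of this list thus included 1 feedback inhibitor that many cells can make and others that are expressed mainly in blood cells.

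Of 11 measured transcription factors of myeloid cells, none passed 2-fold in either direction on the brightest probe set (0 higher and 0 lower). The other probe set of Cebpb had a log2 ratio of 1.03, and the 6 probe sets of Runx1 ranged from -1.73 to 2.52. Spi1, which encodes PU.1, a factor that drives Csf1r and other receptor genes, had signals of 142 and 146 on its only probe set. At signals between 64 and 256, 1 SD of the technical spread was 1.54-fold. Cebpb had signals of 7321 and 13174 (1.80-fold), Egr1 1036 and 1772 (1.71-fold) and Bhlhe40 3216 and 4229, whereas Cebpa had 577 and 392 and Irf8 463 and 382. The median log2 ratio of this list was 0.24, beside 1.73 for the receptor probe sets with neither signal low. Which cells of the graft held the RNA of these factors cannot be read from these arrays, and the difference was not tested.

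Of 10 regulators of the decay of Csf2 and Csf3 and similar RNAs, all 10 were measured and 1 was over 2-fold higher. This was Zfp36, which encodes the RNA-destabilizing protein tristetraprolin, at 780 and 2022 (2.59-fold). Its relative Zfp36l1 had signals of 6601 and 7564, Tia1 349 and 561, Khsrp 528 and 322, Elavl1 1702 and 1480 and Hnrnpd 2719 and 2416. Probe sets of the same gene differed here. Their log2 ratios ranged from -0.18 to 2.19 for Tia1, -0.72 to 0.30 for Khsrp, -0.59 to 0.93 for Elavl1 and -3.21 to -0.17 for Hnrnpd. Of the inducers of these ligands, 5 of 9 were measured, 1 of them over 2-fold higher and 1, Il17a, over 2-fold lower, the latter only as deposited. Il1b, which induces Csf3 in many cells, had signals of 568 and 1080 (1.90-fold), Ltb 98.0 and 203 (2.07-fold), Il33 585 and 415 and Il18 428 and 435, while Tnf (22.2 and 68.7) and Il1a (12.3 and 83.4) were low on both arrays.

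**Figure D3:**
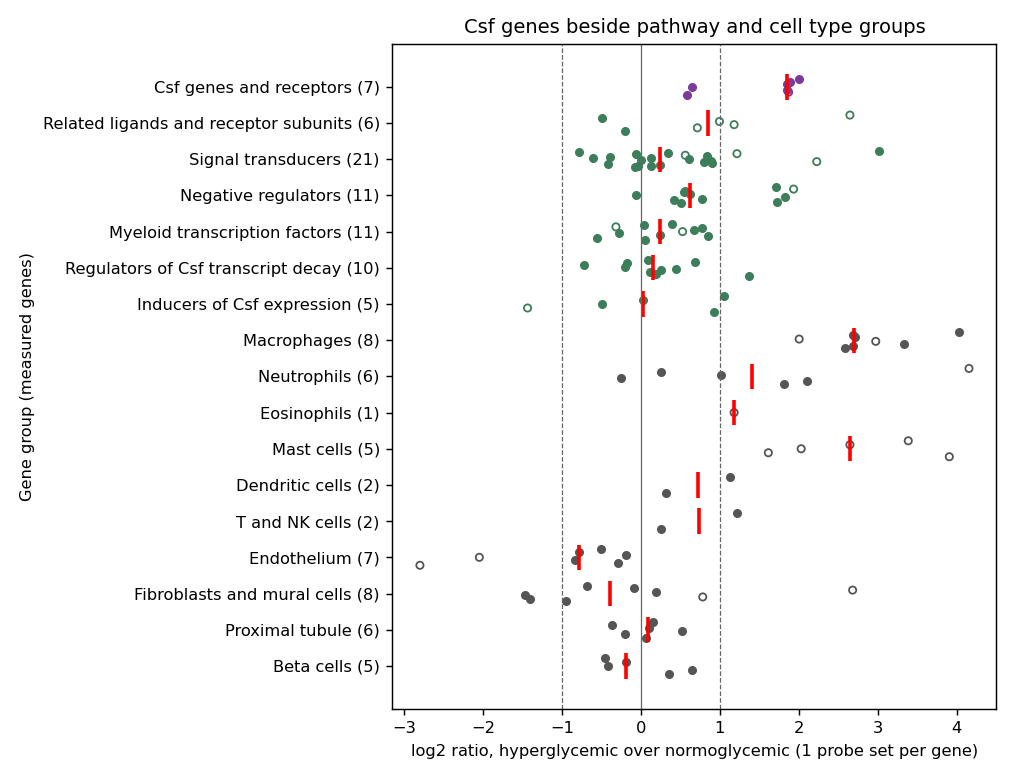
Log2 ratio of the hyperglycemic over the normoglycemic mouse (x axis) for each measured gene (points, brightest probe set) of the 8 genes described here (purple), of 6 pathway lists (green) and of 10 cell type marker lists (grey), with the number of measured genes in brackets. Points are filled where neither signal was below its array median and open where 1 was, and medians are drawn as red bars, with 2-fold as dashed lines. The colony-stimulating factor genes (median 1.86) lie between the macrophage markers (2.70) and the myeloid transcription factors (0.24).

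Promoter sequences were read for the members that the table of RefSeq promoters (GRCm38.p6) held, which were Csf1, Csf2, Csf2ra, Csf2rb2 and Csf3r. They are shown for the 3 receptor genes and for Csf1, to set side by side genes whose brightest probe set was higher in the hyperglycemic mouse. For Csf2ra (1.57-fold, near 1 technical SD) and Csf1 (1.5-fold) that probe set was below 2-fold. Each sequence is the 250 bases before the annotated start of the gene, 5′ to 3′ in the direction of transcription. Capitals mark matches, on either strand, to GAGGAA, the core that PU.1 binds, and to the consensus of the NF-kB site. In Csf3r the first run of capitals is the NF-kB match and the second the PU.1 core, in Csf1 it is the NF-kB match, and in the others the PU.1 core.
Csf3r, GRCm38.p6 chr4:126024409-126024658, plus strand: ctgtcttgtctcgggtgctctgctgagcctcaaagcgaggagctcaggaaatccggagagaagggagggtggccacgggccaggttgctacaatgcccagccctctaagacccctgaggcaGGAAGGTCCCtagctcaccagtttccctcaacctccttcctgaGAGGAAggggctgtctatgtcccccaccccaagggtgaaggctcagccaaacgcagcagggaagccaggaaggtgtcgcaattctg
Csf2rb2, GRCm38.p6 chr15:78305722-78305971, minus strand: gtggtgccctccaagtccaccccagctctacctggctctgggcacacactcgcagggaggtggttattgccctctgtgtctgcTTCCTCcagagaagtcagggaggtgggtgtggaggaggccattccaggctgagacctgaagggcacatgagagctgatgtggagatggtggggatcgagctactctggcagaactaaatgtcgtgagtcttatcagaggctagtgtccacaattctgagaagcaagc
Csf2ra, GRCm38.p6 chr19:61228419-61228668, minus strand: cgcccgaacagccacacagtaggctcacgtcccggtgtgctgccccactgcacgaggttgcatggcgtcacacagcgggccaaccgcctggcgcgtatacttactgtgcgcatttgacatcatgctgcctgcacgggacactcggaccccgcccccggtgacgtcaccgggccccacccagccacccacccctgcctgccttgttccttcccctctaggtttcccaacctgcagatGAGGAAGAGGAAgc
Csf1, GRCm38.p6 chr3:107760470-107760719, minus strand: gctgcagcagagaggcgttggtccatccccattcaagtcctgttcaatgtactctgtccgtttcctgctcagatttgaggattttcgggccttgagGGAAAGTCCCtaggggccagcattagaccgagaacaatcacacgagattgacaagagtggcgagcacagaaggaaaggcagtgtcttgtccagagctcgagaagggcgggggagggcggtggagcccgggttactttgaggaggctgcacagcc
The PU.1 core was present in the promoters of Csf3r, Csf2rb2 and Csf2ra, and no match was found in the same window of Csf1 and Csf2. It was present in 23.3% of all 32851 promoters of this length. The match to the NF-kB consensus in Csf1 began 154 bases before the start and that in Csf3r 129 bases before it, and 7.25% of all promoters held this consensus. The matches do not overlap, although those in Csf2ra adjoin. A match is a description of the letters and says nothing of binding in these grafts. Of the other patterns searched on both strands, TATAAA was found in none of the 5 promoters (12.4% of all), TTCNNNGAA, a STAT site, in that of Csf2rb2 (7.02% of all) and TTNCNNAA, a loose C/EBP site, in those of Csf2 and Csf2ra (36.8% of all).

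The scaling of the arrays changed these ratios little, while the treatment of low signals changed some of them much. Under median centring, quantile normalization and loess correction, the log2 ratio of Csf1r on 1419872_at lay between 1.85 and 1.89, that of Csf3r between 1.97 and 2.01 and that of Csf1 on its brightest probe set between 0.58 and 0.64. The Csf1 probe set at 2.05-fold, just over the limit, had log2 ratios from 0.95 to 1.03 under these scalings and thus lay on either side of 2-fold. Csf2, at -0.72 as deposited, remained negative under all 3 scalings, with both signals low.

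**Figure D4:**
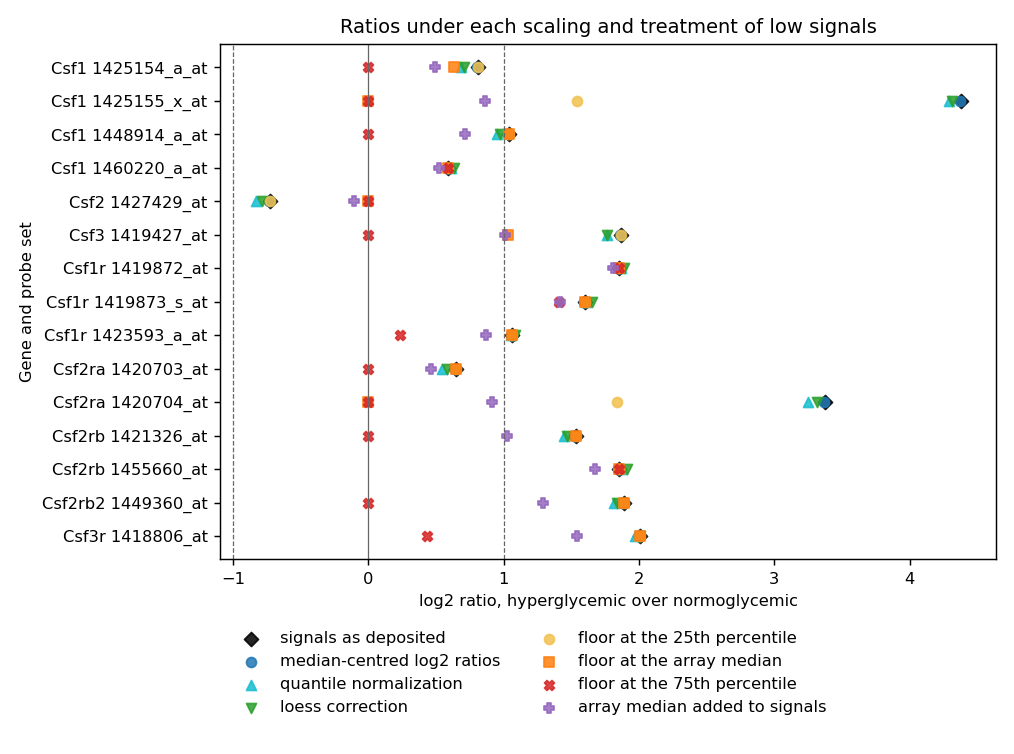
Log2 ratio of the hyperglycemic over the normoglycemic mouse (x axis) of each of the 15 probe sets (y axis) as deposited (black diamonds), under 3 scalings, with signals raised to 3 floors and with the array median added to both signals. Dashed lines mark 2-fold, and a probe set with both signals at a floor is drawn at 0. The brightest probe sets of Csf1r and Csf2rb stay between 1.67 and 1.91 under every setting drawn, whereas the Csf1 value of 4.38 goes to 0 with floors at the array median or above.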

How the data were processed

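The study measured RNA of islet graft from a normoglycemic and from a hyperglycemic recipient, as the labels name them, on 1 MOE430 2.0 array per condition. The number of grafts behind each RNA is not given. The authors deposited MAS5 signal intensities on a linear scale, and neither version nor settings of MAS5 are given in the sources used here. Trimmed of the lowest and highest 2%, both arrays average 500.004, so each was scaled to one target. Table columns were matched to samples by their labels.

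Of 45101 probe sets (64 controls), 34958 carried 1 gene symbol in the platform annotation, 932 several and 9211 none. All 8 genes matched RefSeq (GRCm38.p6) by gene identifier. The table names no build, so coordinates are given only for RefSeq promoters. The ratio of the 2 signals, hyperglycemic over normoglycemic, and its log2 were computed as deposited. There was no test, and the number of arrays, 1 per group, limits the precision. The floor was the median of each array over the 45037 non-control probe sets. Both signals were raised to it for bounds, with a ratio of 1 where both were below. A gene was measured when at least 1 signal reached it.

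Technical spread was the SD of the difference in log2 ratio between probe sets of a gene, divided by the square root of 2. The rule for named genes took every probe set of the 8 genes and, from each list, the highest and lowest ratios (2 each), highest signals (2) and defining markers, with the genes of nearest ratio. Not all genes it gave are printed. Jak2, Syk, Runx1, Mrc1, Kit, Il3ra, Il5ra, Il17a, Spi1, Sla, Tnf, Il1a, Il3, Il5, Cxcr2, Tek, Col1a1, Lum and the genes next to members were named after their values were seen. Members and lists were chosen with earlier results of these data known. Alternatives were 3 scalings (loess span 0.3, 3 iterations), 3 floors, an added array median, filters, limits of 1.5-fold and 5-fold and subsets of probe sets. Python 3.11.15, numpy 2.4.6, pandas 2.3.3, statsmodels 0.14.6 and matplotlib 3.10.9 were used.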

Additional observations from a re-analysis of the deposited data

How the results depend on the processing

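The count of 11 of 15 probe sets over 2-fold higher was between 9 and 11 under the 3 scalings and with floors at the 25th percentile and at the array median. It was 8 of the 10 probe sets with neither signal low, beside 3.55% of all such probe sets. It was 9 of the 12 with at least 1 signal not low and 9 of 13 without suffixes x and s. The share of all probe sets was not computed for these last subsets, so their counts cannot be judged against it. It was 3 with a floor at the 75th percentile of the arrays (0.548% of all probe sets) and 7 with the array median added to both signals (2.57% of all, against 18% as deposited). With 1 probe set per gene it was 5 of 8, or 5 of the 7 measured, beside 7.56% of all 12538 measured genes. At limits of 1.5-fold and 5-fold it was 14 and 2, the last both with low signals. The share of all probe sets past these limits was not computed, so the counts there cannot be judged against it. The count over 2-fold lower was 0, except 1 (Csf2) at a limit of 1.5-fold. The median log2 ratio of 1.60 was 0 with the floor at the 75th percentile and 0.92 with the array median added. With that floor 3 probe sets were over 2-fold higher, 2 of Csf1r and 1 of Csf2rb, since the signals of most others lay under it by construction. Of 105 values of single probe sets under the alternatives, 86 moved by less than 1 technical SD and 19 by more. Of those over 2-fold, 0 changed sign, but floors and an added median draw ratios towards equal signals and could hardly reverse them. The technical SD is wide at low signals. For Csf2 it was 1.51 on the log2 scale, so a move from -0.72 to 0 counted as less than 1 SD. No paired analysis was possible because each group had 1 array. Probe sets with signals below the array medians, among them those of Csf2, allow no statement on direction.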

Other observations

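Some of these genes lie next to each other or next to genes of related function in the RefSeq annotation (GRCm38.p6). Ncf4, which encodes a subunit of the phagocyte NADPH oxidase, Csf2rb2 and Csf2rb follow each other among the protein-coding genes of chromosome 15. Ncf4 had signals of 128 in the normoglycemic and 451 in the hyperglycemic mouse, a log2 ratio of 1.81, beside 1.89 for Csf2rb2 and 1.86 for Csf2rb. Tex33, the next gene after Csf2rb, was low on both arrays, at 69.3 and 27.9. On chromosome 18, Csf1r lies next to Pdgfrb, which encodes the receptor of platelet-derived growth factor on mural cells. The brightest probe set of Pdgfrb had signals of 1205 and 456, a log2 ratio of -1.40 against 1.85 for that of Csf1r, although the other probe set of Pdgfrb had a log2 ratio of 1.16. Med24 and Psmd3, the neighbours of Csf3, had signals of 214 and 201 and of 2259 and 1705.

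Other growth factor receptors of blood cells differed among themselves. Kit, the receptor of stem cell factor that marks mast cells, had signals of 25.4 and 159 (at least 1.92-fold higher), whereas its ligand Kitl had 1323 and 942. Flt3, the receptor that marks dendritic cell precursors, was low on both arrays, at 9.42 and 5.74. Il3ra, the alpha subunit of the IL-3 receptor, was at least 1.5-fold higher (75.9 and 125), and Il5ra, that of the IL-5 receptor, at least 1.28-fold (46.6 and 106). All 5 measured mast cell markers were low in the normoglycemic mouse and counted as measured only through their signal in the hyperglycemic mouse. That all 5 were over 2-fold higher as deposited was therefore favoured by the filter (7.56% of all measured genes were). With low signals raised to the array medians, 3 were. Cpa3, a carboxypeptidase of mast cells, had signals of 53.2 and 798 (at least 9.62-fold higher). Mcpt4, a protease of mast cells, had 52.6 and 161 (at least 1.94-fold). The eosinophil markers Prg2 and Epx were low on both arrays, as were the T cell markers Cd3e and Cd3g. Of the dendritic cell markers, Itgax had signals of 94.7 and 206 and Zbtb46 112 and 140, and of the lymphocyte markers, Il7r had 113 and 263 and Cd8a 123 and 146.

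The genes with the log2 ratio nearest to that of Csf3r (2.01), among genes with neither signal low, were Tent5c (2.01), Crip1 (2.0) and Zbtb16 (1.99). Nearest to Csf1r (1.85) were Gprc5b (1.85), Depp1 (1.87) and Rgs19 (1.88), and nearest to Csf2rb2 (1.89) were Edn3 (1.88), Pilrb1 (1.89) and Fcgr4 (1.89). Likeness here is the difference in 1 ratio over 2 arrays, and 12 genes lay within 0.05 of Csf2rb2. For Csf1 on its brightest probe set, 276 genes lay as close, so that a near ratio there singles out no gene.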
